A study of Danio rerio with 24 samples.

Results

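The 46 genes described here were lower in zebrafish embryos that had received Cas13d as purified protein than in embryos given its mRNA. They were chosen on measured values. In the second set of libraries, the mean of log2(TPM + 1) over the Cas13d protein libraries had to lie at least 3 below the mean over the Cas13d mRNA libraries. TPM is a length-normalised share of all transcripts in a library, so its levels can be compared between genes. The mean TPM of the Cas13d mRNA libraries had to be at least 10. Of the 32521 rows of the deposited table, 60 met both thresholds, and 14 of these were set aside by name, among them nanog, mxtx2, gdf3, sebox, ccna1 and rows of small structured RNAs. Because those 4 libraries chose the members, every value from them is given as a description, without a test.

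A zebrafish egg carries a store of maternal RNA that directs the first cleavages. Part of this store is cleared as the embryo turns on its own genome, and mesendoderm regulators such as mixl1 are among the genes transcribed early. Cas13d is a bacterial nuclease that guide RNAs direct to a chosen transcript, which it cuts without altering the genome.

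Whole embryos were sampled 6 hours after injection, and their RNA gave 24 libraries in 12 groups of 2 biological replicates. The embryos of the first set were transgenic and carried maternal RFP mRNA. They were uninjected or had received RfxCas13d mRNA (200 to 250 pg per embryo) alone, with nanog guides, with rfp guides, with a reporter, or with both reporter and dnd guides. This reporter was gfp mRNA (40 pg) carrying the nanos 3′ untranslated region, and guides were given at 500 to 600 pg. In the second set, Cas13d mRNA was injected alone or with szrd1 guides. Cas13d protein (3 ng) was injected alone, with szrd1 guides, with the reporter, or with the reporter and dnd1 guides. In that last group, the label of replicate 2 does not give the protein dose clearly. No uninjected or protein-buffer group of the second set was used here. The first set holds no protein, and set and group cannot be told apart across the sets. In whole embryos, fewer cells of a type and less RNA per cell cannot be told apart either.

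Between 13927 and 15757 genes per library had at least 1 TPM, and the number of reads behind the values is unknown. The nanog, szrd1 and dnd1 transcripts followed the labels, and the level of the rfp target is not reported here. With nanog guides, nanog stood at 33.6 and 44.5 TPM, and at 324 and 253 TPM in the Cas13d mRNA group. With szrd1 guides, szrd1 measured 54.6 and 71.9 TPM (mRNA) and 45.3 and 36.3 TPM (protein) against at least 260 TPM in the group without guides of the same delivery. With dnd or dnd1 guides, dnd1 lay between 0.79 and 1.35 TPM, and between 6.88 and 12.1 TPM in the reporter libraries without guides.

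The members fall into a group of 11 loci and 35 other rows. The 11 loci are zgc:158463 (ENSDARG00000089382), which RefSeq annotates as ribosomal RNA, and 10 rows named after the clones AL935186, CABZ01072614 and CT583728. They are called clone loci below, and the grouping was made after their values were seen. Over the 24 libraries, the 10 clone-named rows correlated with zgc:158463 at a Pearson r of 0.85 to 0.98 on the log2(TPM + 1) scale, and the 35 other members with -0.14 to 0.75. These coefficients describe libraries that share composition, include the libraries that chose the members, and are no test of the grouping. Of the 35 others, 21 match a RefSeq protein-coding gene and 14 have no match. There are 4 pairs of rows with identical values in every library (AL935186.6 and AL935186.8, AL935186.10 and CABZ01072614.1, CT583728.10 and CT583728.12, BX323880.1 and CR847803.1), so the 46 rows hold 42 distinct profiles. Rows of near-identical copies share reads, and their separate levels are uncertain.

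**Figure D1:**
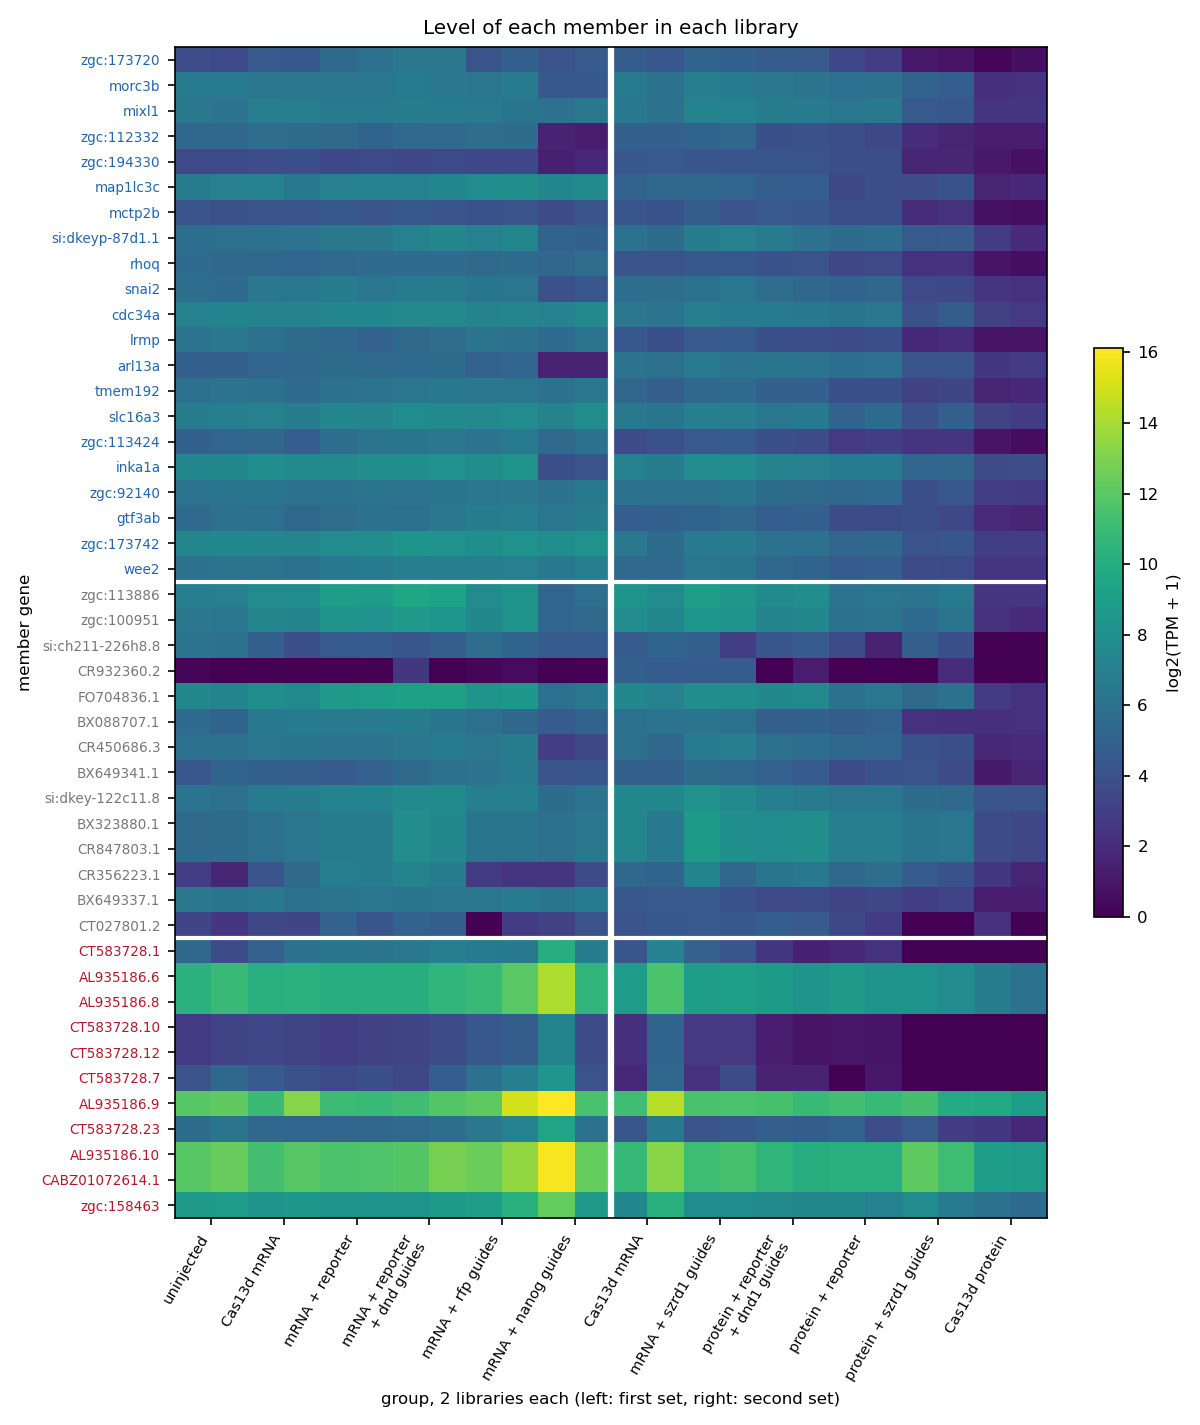
Each row is a member, each column a library, and colour is log2(TPM + 1). Names in blue match a RefSeq protein-coding gene, names in grey have no match and names in red are the 11 clone loci. The Cas13d protein libraries form the last pair of columns, where 43 of 46 members have their lowest group mean. The rule chose members for low values there. CT583728.1, CT583728.7, CT583728.10 and CT583728.12, counted among the 43, are equally low with protein and szrd1 guides. CR932360.2, not counted among the 43, is listed at 0 with Cas13d protein and also in other groups.

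The differences that chose the members ran from -5.74 for CT583728.1 (ENSDARG00000098155) to -3.01 for zgc:158463 on the log2(TPM + 1) scale. After CT583728.1, the lowest were zgc:113886 (-5.51), zgc:100951 (-5.46), si:ch211-226h8.8 (-4.93), CR932360.2 (-4.81), FO704836.1 (-4.74), zgc:173720 (-4.09), morc3b (-4.03) and, at -3.83 each, AL935186.6, AL935186.8 and mixl1. AL935186.10 and CABZ01072614.1 (-3.06 each) and zgc:158463 lay just inside the threshold. Just outside it were ndr1 (-2.9995), larp6b (-2.99) and fopnl (-2.98). mixl1 (ENSDARG00000069252), a Mix-type homeobox factor of mesendoderm, measured 89.4 and 62.8 TPM with Cas13d mRNA and 4.30 and 4.42 TPM with protein. morc3b (ENSDARG00000043271), a MORC-family ATPase, measured 94.9 and 64.8 TPM with mRNA and 3.58 and 4.16 TPM with protein. zgc:113886 (ENSDARG00000077712) measured 330 and 220 TPM with mRNA and 4.96 and 4.91 TPM with protein. By the rule, the groups are far apart in each of them.

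The clone loci met the rule largely through 1 library. Their summed level was 7086 TPM in Cas13d mRNA replicate 1 and 48533 TPM in replicate 2, against 1631 to 2189 TPM with protein. Without Cas13d mRNA replicate 2, 1 of the 11 clone loci and 34 of the 35 others still met the rule. Without Cas13d mRNA replicate 1, 11 and 31 did. Without protein replicate 2, 7 and 32 did, and without protein replicate 1 all 46 did. The 35 other members summed to 2104 and 2657 TPM with Cas13d mRNA and to 137 and 159 TPM with protein.

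The first set shows what levels these genes had in embryos without protein. The rule chose members for low values in the Cas13d protein libraries, so a higher level elsewhere was largely fixed in advance. The share of all genes was not counted, so the next count is a description and no test. With those limits, in 41 of the 46 members all 12 libraries of the first set were above both Cas13d protein libraries. The exceptions were CR932360.2, zgc:112332, arl13a, CR356223.1 and CT027801.2, each with at least 1 low library in the first set. CR932360.2 (ENSDARG00000096780) was low in the first set: it was listed at 0 to 5.02 TPM in the first set and at 24.7 to 29.8 TPM in the 4 Cas13d mRNA libraries of the second. Among the 6 groups of the first set, the highest mean was with dnd guides for 18 members, nanog guides for 11 and rfp guides for 10. It was in uninjected embryos for 3, and with Cas13d mRNA or its reporter for 2 each. The 11 with nanog guides were the clone loci, and their means there rest largely on replicate 1. Their summed level was 239181 TPM in that library and 16800 TPM in replicate 2.

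**Figure D2:**
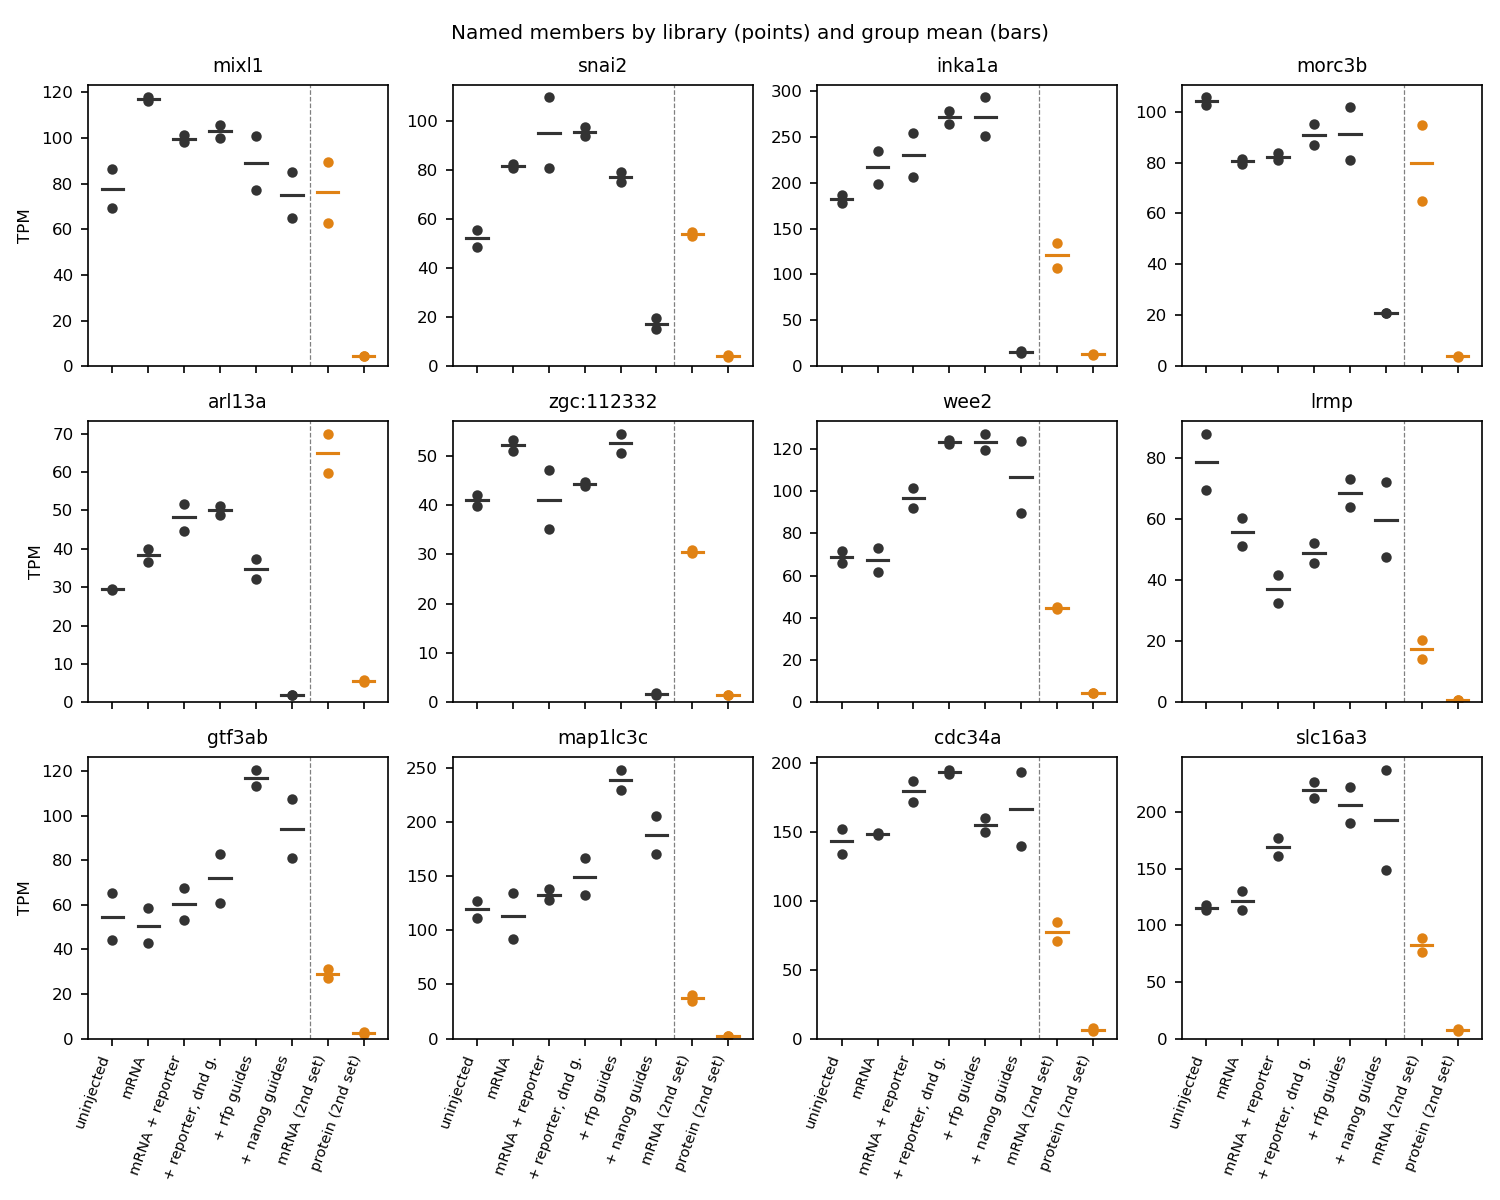
Points are libraries and bars are group means in TPM, on linear axes from 0, for 12 members in the 6 groups of the first set (black) and in the Cas13d mRNA and protein groups of the second set (orange). snai2, inka1a, morc3b, arl13a and zgc:112332 are low with nanog guides, whereas mixl1, wee2, lrmp, gtf3ab, map1lc3c, cdc34a and slc16a3 stay at 47.8 TPM or more there.

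Injection of Cas13d mRNA without guides, was compared with no injection. snai2 (ENSDARG00000040046), a Snail-family transcription factor, measured 55.6 and 48.8 TPM in uninjected embryos and 82.5 and 81.1 TPM with Cas13d mRNA. mixl1 measured 86.2 and 69.3 TPM uninjected and 116 and 118 TPM injected. wee2 (ENSDARG00000012718), an inhibitory kinase of the cell cycle known from mammalian oocytes, measured 66.0 and 71.5 TPM uninjected and 73.3 and 61.7 TPM injected. The groups did not overlap for snai2 and mixl1 and overlapped for wee2. No member was called by limma (a call needs a Benjamini-Hochberg adjusted p under 0.05 over all 15253 genes tested and a log2 change of at least 1 in size). The share of all genes called was 0.00656% higher and 0% lower. At an unadjusted p under 0.05 there were 15 of the 45 members tested. The share of all genes at that level was not counted, here or in the comparisons below, so such counts have no background. CR932360.2 was below the filter, a mean of 1 TPM over the set. With genes of at least 5 TPM only, 1 member was called lower and 1 higher. The median log2 fold change was 0.07 over the members and 0.09 over all genes.

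The nanog guides compare embryos depleted of a transcription factor that activates the zygotic genome with embryos given Cas13d mRNA alone. Of the 45 members tested, 13 fell and 1 rose, where 2.12% of all genes fell and 1.95% rose. The 13 that fell include a transcription factor, a kinase inhibitor, a small GTPase, a MORC-family member and 9 genes whose roles are not described here. inka1a (ENSDARG00000070360), related to the mammalian inhibitor of the kinase PAK4, measured 14.6 and 17.1 TPM against 234 and 199 TPM. Its level was 7.30% of that with Cas13d mRNA alone (log2 fold change -3.69, SE 0.16, limma adjusted p 2.29e-08). The groups lay far apart, and 12.6 and 13.1 TPM were listed with Cas13d protein. Protein values, here and in the next paragraph, were chosen by the rule and come from the other set, so setting them beside nanog guide levels is description only.

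arl13a (ENSDARG00000052575), an ARL13-type small GTPase, measured 1.86 and 1.90 TPM with nanog guides and 36.6 and 40.0 TPM with Cas13d mRNA. Its log2 fold change was -3.77 (SE 0.17, limma adjusted p 2.29e-08). zgc:112332 (ENSDARG00000058966) measured 1.96 and 1.47 TPM against 53.3 and 51.0 TPM (log2 fold change -4.30, SE 0.18, limma adjusted p 2.29e-08). These are the lowest values of both genes in the first set, and for arl13a they lie below the 5.19 and 5.92 TPM with Cas13d protein. snai2 measured 15.11 and 19.5 TPM against 82.5 and 81.1 TPM (log2 fold change -2.19, SE 0.18, limma adjusted p 8.66e-06). morc3b measured 20.8 and 21.1 TPM against 79.5 and 81.4 TPM (log2 fold change -1.89, SE 0.15, limma adjusted p 7.54e-06). In snai2 and morc3b, unlike arl13a, the nanog guide libraries stayed above both protein libraries, at 3.86 to 4.47 TPM for snai2.

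CR450686.3 (ENSDARG00000093787) fell from 80.5 and 75.2 TPM to 6.71 and 10.5 TPM (log2 fold change -3.07, SE 0.21, limma adjusted p 1.34e-06). zgc:194330 (ENSDARG00000061432), named b3galt10.1 in the reference table, fell from 13.1 and 14.0 TPM to 1.68 and 2.54 TPM. zgc:113886 fell from 221 and 229 TPM to 37.3 and 58.7 TPM. None of these 3 overlapped between the groups. The rest that fell were zgc:100951 (-1.87), CR356223.1 (-1.83), BX088707.1 (-1.66), FO704836.1 (-1.64) and si:dkeyp-87d1.1 (-1.07 on the log2 scale).

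Other members were not called. mixl1 was lower without reaching the minimum change, at 64.8 and 85.1 TPM with nanog guides against 116 and 118 TPM (log2 fold change -0.65, adjusted p 0.0445 in limma). lrmp (ENSDARG00000045574), known in zebrafish for the union of the pronuclei after fertilisation, measured 47.8 and 72.1 TPM against 60.3 and 51.3 TPM. wee2 measured 89.9 and 124 TPM against 73.3 and 61.7 TPM (log2 fold change 0.64). gtf3ab (ENSDARG00000071583), the TFIIIA factor of 5S ribosomal RNA genes, measured 80.9 and 108 TPM against 58.4 and 43.0 TPM (0.88). map1lc3c (ENSDARG00000100528), an LC3 protein of autophagosomes, measured 170 and 205 TPM against 134 and 92.1 TPM (0.75). For wee2, gtf3ab and map1lc3c the groups did not overlap, but no change reached 1 on the log2 scale. Over the 34 members tested that are not clone loci, the median log2 fold change was -0.11, and over all genes it was -0.05. The count of 13 was 12 or 13 under every alternative and every left-out library.

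**Figure D3:**
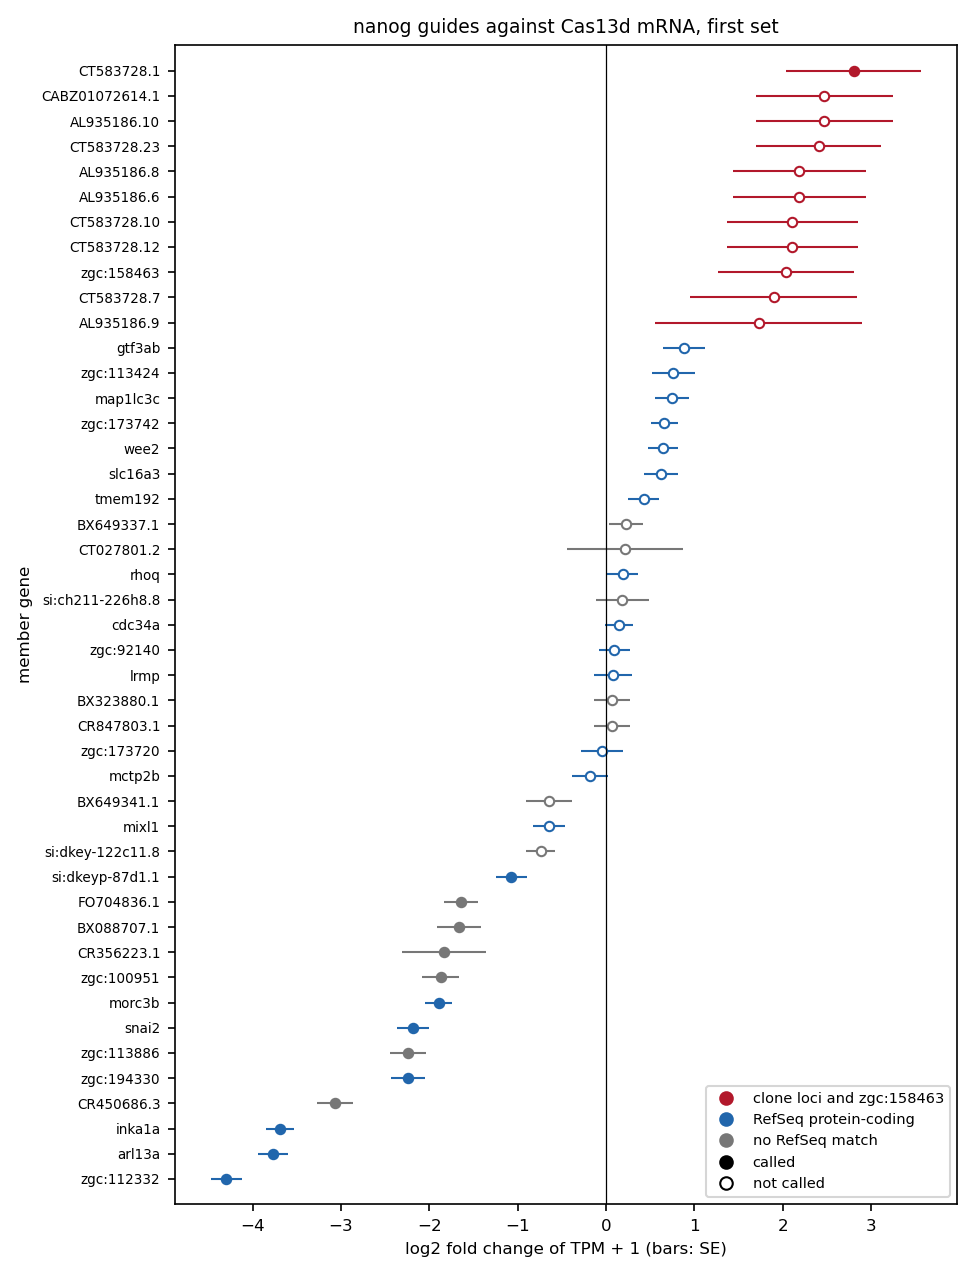
Log2 fold change of TPM + 1 with nanog guides against Cas13d mRNA alone for the 45 members tested, with the standard error as bars; filled points were called. The clone loci (red) form the top of the plot with wide bars, and 13 members, led by zgc:112332, arl13a and inka1a, form the bottom.

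The clone loci behaved differently within the nanog guide group itself. Their summed level was 239181 TPM in replicate 1 and 16800 TPM in replicate 2, so that replicate 1 had the larger share of its library in these rows. AL935186.9 (ENSDARG00000115978), the most abundant, measured 71385 and 2917 TPM, and zgc:158463 measured 5196 and 409 TPM. With Cas13d mRNA alone, zgc:158463 measured 324 and 388 TPM. The 1 member called higher with nanog guides was CT583728.1, at 1034 and 106 TPM against 32.9 and 66.0 TPM (log2 fold change 2.81, SE 0.76, limma adjusted p 0.0410). All 11 clone loci had a log2 fold change above 0, with a median of 2.19. Without nanog guide replicate 2 the median over the clone loci was 4.03, and without replicate 1 it was 0.41. The lowest of the 11 values was then -0.58, so not all stayed above 0. The median absolute log2 difference between the replicates was 3.60 for the clone loci, 0.42 for the other members and 0.50 for all genes in this group. TPM sums to a constant in each library, and the part of this share in the other members' values was not tested.

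The rfp guides direct Cas13d to a transgene transcript, and share the Cas13d mRNA controls with the nanog guides. Of the 45 members, 5 rose and 1 fell, where 2.16% of all genes rose and 3.83% fell. map1lc3c measured 229 and 248 TPM against 134 and 92.1 TPM (log2 fold change 1.09, SE 0.19, limma adjusted p 0.0079). gtf3ab measured 113 and 120 TPM against 58.4 and 43.0 TPM (log2 fold change 1.21, SE 0.24, limma adjusted p 0.0111). BX649341.1 (ENSDARG00000101731) measured 69.1 and 93.0 TPM against 30.9 and 28.3 TPM (log2 fold change 1.41, SE 0.26, limma adjusted p 0.00915). In all 3, every guide library was above both controls. zgc:113424 (1.34) and si:dkeyp-87d1.1 (1.05) also rose. CR356223.1 fell from 18.4 and 47.6 TPM to 6.32 and 4.39 TPM (log2 fold change -2.29, SE 0.47, limma adjusted p 0.0136), from controls that themselves differed by more than the distance between the lower control and the guide libraries. Without Cas13d mRNA replicate 2 no member was called in either direction, and without rfp guide replicate 2 none was called higher. The mitochondrially encoded transcripts summed to 130981 to 142897 TPM with rfp guides against 70589 to 88396 TPM in the controls; the part of this share in the member values was not tested.

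Compared directly with the rfp guides, the nanog guides gave 12 members lower and 0 higher, where 1.78% of all genes were lower and 2.06% higher. inka1a was 251 and 293 TPM with rfp guides, and its log2 fold change with nanog guides was -4.02 (SE 0.16, limma adjusted p 9.06e-09). zgc:112332 (-4.31), arl13a (-3.63) and CR450686.3 (-3.39) followed the same direction. snai2 (-2.11), morc3b (-2.07), FO704836.1 (-2.30), zgc:113886 (-2.45), zgc:100951 (-2.53), si:dkeyp-87d1.1 (-2.12), BX649341.1 (-2.05) and zgc:194330 (-1.81) complete the 12. At an unadjusted p under 0.05 there were 18 members in both directions together. The median log2 fold change was 0.97 over the clone loci and -0.34 over the other members. Without nanog guide replicate 2 these medians were 2.75 and -0.52, and without replicate 1 they were -0.80 and -0.17. The direction of the clone locus median therefore depended on replicate 1.

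Adding the reporter to Cas13d mRNA raised 3 members and lowered 0, where 0.642% of all genes rose and 0.197% fell. zgc:173720 (ENSDARG00000109366) measured 46.8 and 57.8 TPM against 21.2 and 20.4 TPM (log2 fold change 1.28, SE 0.24, limma adjusted p 0.0295). zgc:113886 measured 512 and 484 TPM against 221 and 229 TPM (log2 fold change 1.14, SE 0.20, limma adjusted p 0.0235). FO704836.1 (ENSDARG00000115096) measured 428 and 487 TPM against 248 and 203 TPM (log2 fold change 1.02, SE 0.19, limma adjusted p 0.0286). None of the 3 overlapped between the groups. The median of all genes was 0.13 in this comparison, and with median-of-ratios scaling 1 member was called. Leaving out 1 library left 0 or 1 called, and 13 members had an unadjusted p under 0.05.

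The dnd guides with the reporter, against the reporter alone, gave no called member by limma, where 0.0197% of all genes rose and 0.00656% fell, and 8 members had an unadjusted p under 0.05. Of the 45 members, 42 had a log2 fold change above 0, with a median of 0.33 against -0.00 over all genes. The members share the same libraries and some rows share reads, so this count is a description and no test. The share of all genes above 0 was not counted. BX649341.1 measured 47.0 and 61.7 TPM against 23.9 and 32.0 TPM (0.94), the largest difference. zgc:113886 measured 728 and 640 TPM against 512 and 484 TPM (0.45), its highest values in the 24 libraries. slc16a3 (ENSDARG00000045051), a monocarboxylate transporter, measured 227 and 213 TPM against 177 and 161 TPM (0.38). The groups did not overlap for any of these 3.

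**Figure D4:**
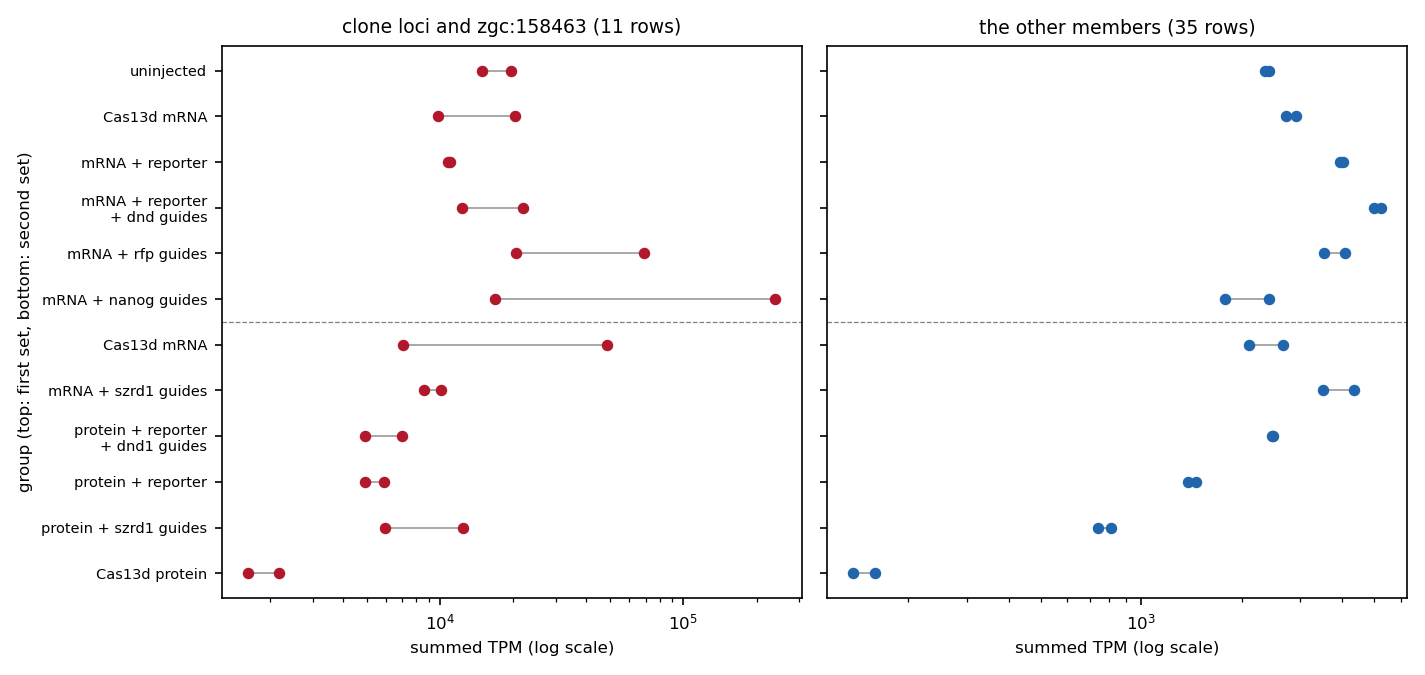
Summed TPM per library on a log axis for the 11 clone loci (left) and the 35 other members (right); each point is a library and a grey line joins the replicates of a group. The other members run from 137 TPM with Cas13d protein to 5229 TPM with dnd guides and the reporter, and the clone loci differ most between the replicates of the nanog guide group.

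In sum over the 35 other members, uninjected embryos had 2345 to 2417 TPM, Cas13d mRNA 2724 to 2916 TPM, its reporter 3952 to 4023 TPM and the dnd guides 4987 to 5229 TPM. The rfp guides had 3530 to 4092 TPM and the nanog guides 1781 to 2414 TPM. Uninjected and nanog guide libraries overlapped, as did the reporter and rfp guide libraries, and the dnd guide libraries were above every other library. The order of these sums was not tested.

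In the second set, protein and mRNA delivery could be compared in libraries that did not choose the members: both groups with szrd1 guides. Of the 46 members, all of which were tested, 40 were lower with protein and 0 higher, where 8.06% of all 14699 genes were lower and 9.35% higher. These included 34 of the 35 other members and 6 of the 11 clone loci. By the same test, leaving out 1 library gave 37 to 42 members lower. The median log2 fold change was -2.31, and 0.01 over all genes. CT027801.2, CT583728.1, CT583728.7, CT583728.10 and CT583728.12 were listed at 0 in both protein libraries, so no fold is given for them, and the median over the other members was -2.20. Members with an unadjusted p under 0.05 also numbered 40.

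mixl1 measured 22.8 and 19.4 TPM with protein and 144 and 137 TPM with mRNA (log2 fold change -2.69, SE 0.11, limma adjusted p 7.90e-06). snai2 measured 10.8 and 10.2 TPM against 65.1 and 78.0 TPM (log2 fold change -2.65, SE 0.14, limma adjusted p 1.74e-05). These transcription factors stood at 15.0% and 14.6% of their level with mRNA. Of the egg genes, wee2 measured 12.3 and 11.1 TPM against 78.9 and 74.8 TPM, and lrmp 2.43 and 3.18 TPM against 21.3 and 24.2 TPM. Their log2 fold changes were -2.62 and -2.65 (SE 0.11 and 0.15). None of these 4 genes overlapped between the groups.

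Among the signalling genes, inka1a measured 38.0 and 39.0 TPM against 216 and 227 TPM (log2 fold change -2.49, SE 0.09, limma adjusted p 5.24e-06). arl13a measured 16.9 and 17.6 TPM against 96.3 and 70.9 TPM (-2.20). Their protein libraries were below every mRNA library. Among genes of degradation and transport, cdc34a (ENSDARG00000069708), a ubiquitin-conjugating enzyme, measured 15.3 and 25.9 TPM against 117 and 99.5 TPM (-2.38). tmem192 (ENSDARG00000037484), a lysosomal membrane protein, measured 7.86 and 9.51 TPM against 43.4 and 48.6 TPM (-2.28). slc16a3 measured 15.2 and 29.1 TPM against 124 and 117 TPM (-2.46). map1lc3c (-1.40) and gtf3ab (-1.56) had smaller differences than these, at 36.4% and 32.4% of the level with mRNA.

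The furthest from the mRNA level among genes not listed at 0 were zgc:173720 and BX088707.1. zgc:173720 measured 1.11 and 0.81 TPM against 35.8 and 31.8 TPM (log2 fold change -4.15, SE 0.19, limma adjusted p 1.03e-05). BX088707.1 (ENSDARG00000101935) measured 3.99 and 3.54 TPM against 73.4 and 66.1 TPM (log2 fold change -3.89, SE 0.13, limma adjusted p 5.24e-06). Both groups were tight in each gene. The 6 members not called were si:ch211-226h8.8 and the clone loci zgc:158463, AL935186.9, AL935186.10, CABZ01072614.1 and CT583728.23. AL935186.10 measured 4478 and 2198 TPM with protein and 2192 and 2817 TPM with mRNA, so its groups overlapped.

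The reporter group with protein could be set against the same mRNA libraries with szrd1 guides, although these groups also differ in the reporter and the guides. Of the 46 members, 28 were lower and 0 higher, where 3.35% of all genes were lower and 1.66% higher. At an unadjusted p under 0.05 there were 40. The median log2 fold change was -1.31 against -0.05 over all genes. CR932360.2 was listed at 0 in both reporter libraries and at 25.2 TPM in both mRNA libraries. zgc:113886 measured 68.7 and 79.2 TPM against 522 and 378 TPM (log2 fold change -2.57, SE 0.19, limma adjusted p 4.32e-04). zgc:100951 (ENSDARG00000111442) measured 64.9 and 71.9 TPM against 358 and 305 TPM (log2 fold change -2.26, SE 0.16, limma adjusted p 4.26e-04). mixl1 measured 78.8 and 88.1 TPM against 144 and 137 TPM (-0.75) and cdc34a 76.5 and 84.7 TPM against 117 and 99.5 TPM (-0.42). Neither of the last 2 reached the minimum change, though their groups did not overlap. This comparison and the one above share their controls.

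**Figure D5:**
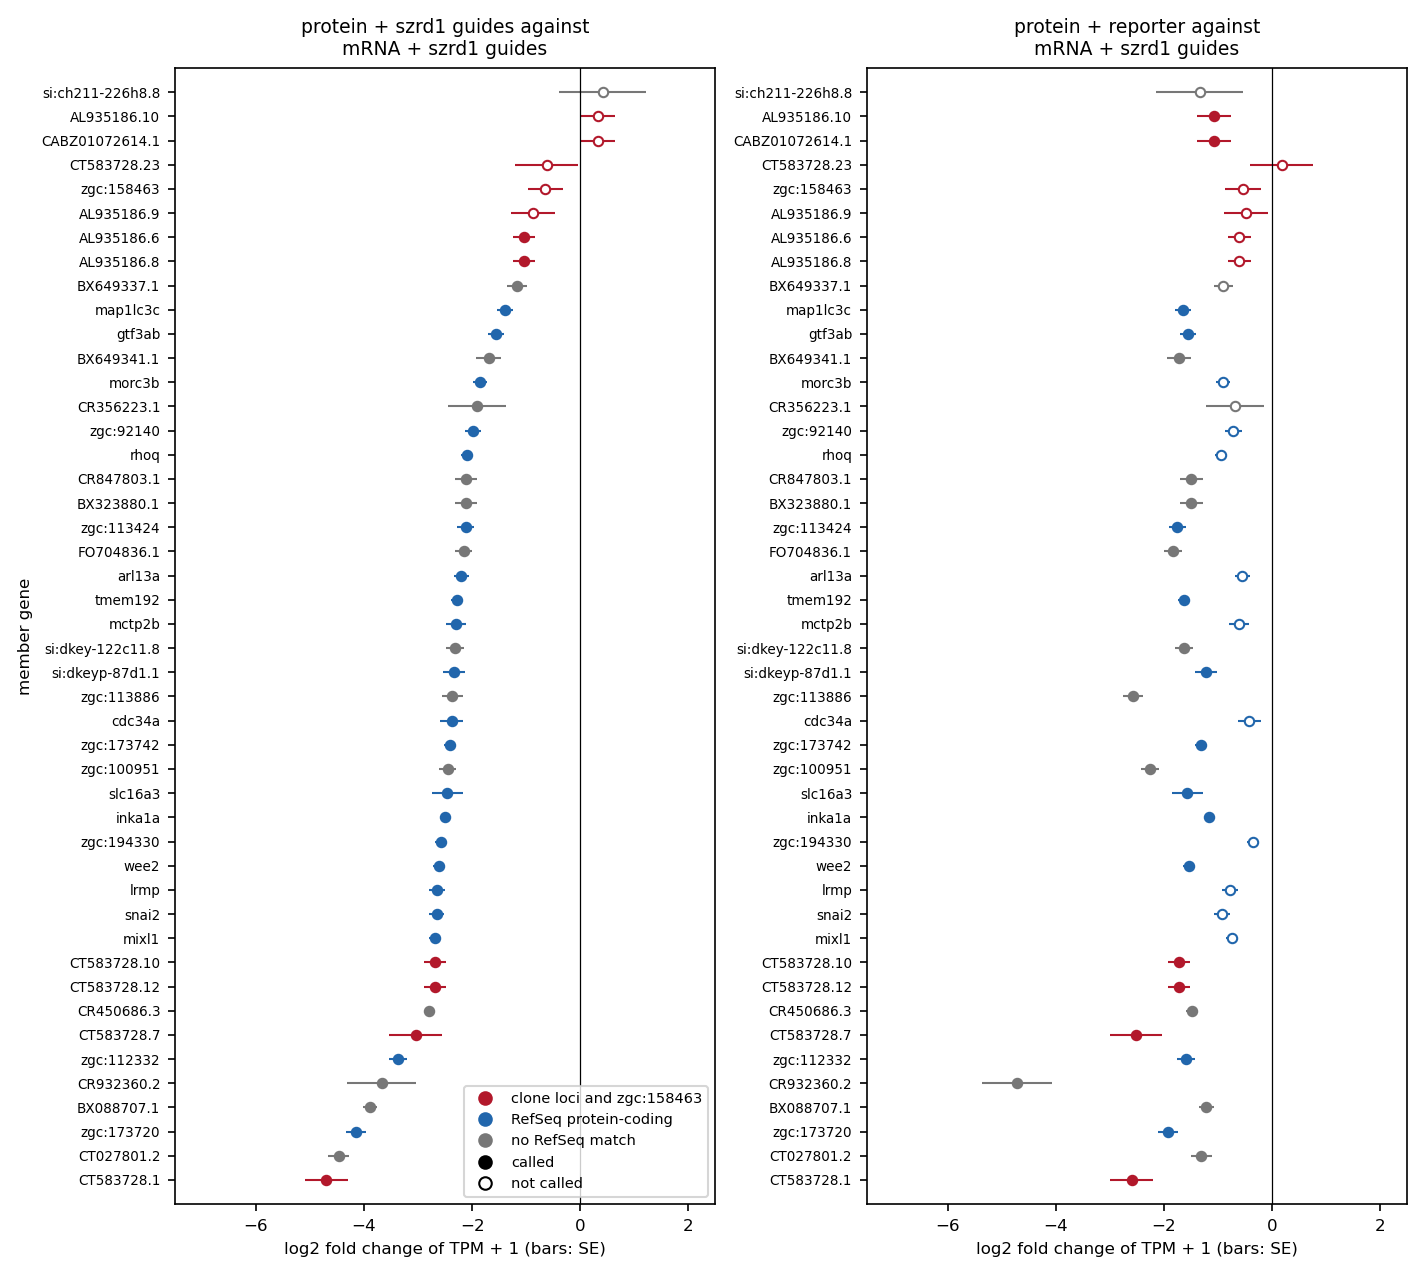
Log2 fold change of TPM + 1 for the 46 members in libraries the rule did not use: protein with szrd1 guides (left) and protein with the reporter (right), each against mRNA with szrd1 guides, in the order of the left panel, with the standard error as bars and filled points for called members. Fitted values of the 5 members listed at 0 on the left and the 1 listed at 0 on the right depend on the pseudocount; 40 points on the left and 28 on the right are called, all below 0.

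A direct comparison of protein groups was added after the values were seen. Protein with szrd1 guides had 19 members lower and 2 higher than protein with the reporter, where 3.51% of all genes were lower and 6.83% higher. mixl1 was at 22.8 and 19.4 TPM against 78.8 and 88.1 TPM (log2 fold change -1.94, SE 0.11, limma adjusted p 7.59e-05). BX088707.1 (-2.68), zgc:194330 (-2.22) and cdc34a (-1.96) were lower too, and CT027801.2 and CT583728.1 were listed at 0 in both szrd1 guide libraries. The 2 higher were AL935186.10 and CABZ01072614.1 (1.41 each), rows with identical values, and neither was called in a fit of all 12 libraries. Without protein with szrd1 guides replicate 1 their log2 fold change was 0.90. zgc:113886 measured 73.5 and 99.1 TPM against 68.7 and 79.2 TPM, and gtf3ab 13.9 and 10.3 TPM against 12.6 and 11.6 TPM, so these genes overlapped between the groups.

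As a share of the Cas13d mRNA level of the second set, the median member stood at 5.74% with protein, the group that chose it. It stood at 26.5% with protein and szrd1 guides, 44.5% with protein and the reporter, 84.3% with protein, reporter and dnd1 guides, and 128.5% with mRNA and szrd1 guides. For the 35 other members the last value was 139% and for the clone loci 32.4%. The clone locus value depends on Cas13d mRNA replicate 2: zgc:158463 measured 226 and 227 TPM with mRNA and szrd1 guides, and 182 and 1196 TPM with Cas13d mRNA alone. These shares all use the mRNA libraries of the rule and are descriptions.

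With dnd1 guides added to protein and reporter, 8 members rose and 0 fell, where 0.32% of all genes rose and 0.0204% fell. zgc:113886 measured 198 and 236 TPM against 68.7 and 79.2 TPM (log2 fold change 1.54, SE 0.19, limma adjusted p 0.0207). zgc:173720 measured 24.8 and 23.6 TPM against 9.93 and 6.64 TPM (1.46), and FO704836.1 181 and 197 TPM against 64.8 and 78.9 TPM (1.39). None overlapped between the groups. CT027801.2 (1.56), zgc:100951 (1.22), gtf3ab (1.19), map1lc3c (1.15) and tmem192 (1.01) were the others called. The calls rested on both replicates: leaving out any 1 library left 0 or 1, and 26 members had an unadjusted p under 0.05. Without the intensity trend none was called, and with no filter on low values 1 was. Of the 46 members, 45 had a value above 0, with a median of 0.52 against 0.06 over all genes. These rows come from the same libraries, so the count is a description, and the share of all genes above 0 was not counted.

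Gene lists outside the members describe other differences between protein and mRNA with szrd1 guides. The members are left out of these counts, which stand beside 8.06% of all genes lower and 9.35% higher. Genes that the rule had set aside by name, such as nanog, stay in the counts, and ndr1 lay just outside the threshold of the rule. Of 32 oocyte and egg genes tested, 12 were lower and 0 higher, with a median log2 fold change of -0.90. They include npm2a (-1.91), a histone chaperone of the egg, and zp3c (-1.64), an egg coat protein. Of 18 germ plasm genes, 4 were lower, among them the RNA helicase ddx4 (-1.86). Of 77 early zygotic patterning genes 11 were lower and 18 higher, with the T-box factor tbx6 at 3.54 and ndr1, a Nodal ligand, at -2.39. Of 14 pluripotency and genome activation factors, 3 were lower and 1 higher, with nanog at -2.87. Of 24 meiotic and cleavage cell cycle genes, 4 were lower and 2 higher. Of 42 maternal RNA clearance and translation regulators, 3 were lower and 2 higher. Of 22 p53 response genes, 1 was lower and 2 were higher.

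Some markers of later stages and of other layers also differed. Of 35 rows of later gastrula and tissue markers, 15 passed the filter, several of them only through their level with protein, so no share of them is given. The hindbrain gene hoxb1b averaged 30.0 TPM with protein and szrd1 guides and 0.165 TPM with mRNA and szrd1 guides. The muscle determination gene myf5 averaged 17.9 and 0.37 TPM in the same groups. Both were picked after their values were seen, and hoxb1b passed the filter only through this protein group. Other listed markers were higher with protein too: ripply1 averaged 86.2 and 19.4 TPM, and tbx1 17.35 and 2.255 TPM in these groups. Some differed little: hoxb1a averaged 1.12 and 1.025 TPM, and lmo2 2.715 and 2.265 TPM. Of the 15 rows, 0 were called lower, which the filter partly fixed in advance. In sum, the later markers had 790 to 902 TPM with protein alone, 452 to 543 TPM with protein and szrd1 guides, 147 to 175 TPM in the other protein groups and 47.2 to 163 TPM in all other libraries. Of 14 yolk syncytial layer markers, 7 were higher and 1 lower, with apoa1a at 3.91 and mxtx2 at -2.99. Among the 14, serpina1 passed the filter only through protein with szrd1 guides, with a mean of 13.95 TPM there. mxtx2 had met the rule and been set aside by name. The yolk syncytial layer markers summed to 3556 to 3670 TPM with protein and szrd1 guides and 1501 to 1670 TPM with mRNA and szrd1 guides. Without guides they had 4104 to 4249 TPM with protein and 2150 to 2162 TPM with mRNA. Protein with the reporter had 2577 to 2650 TPM, and 2152 to 2307 TPM when dnd1 guides were added. In the first set they had 460 to 668 TPM with nanog guides and 1263.1 to 1473.5 TPM with Cas13d mRNA alone. Of 15 enveloping layer markers, 5 were higher and 1, grhl3 (-1.11), was lower, and their sums were 15802 to 16113 TPM with protein and 7107 to 13488 TPM in all other libraries. Mitochondrial transcripts summed to 48919 to 69189 TPM in the protein groups and to 60817 to 142897 TPM elsewhere. The part of stage, cell layer or mitochondrial share in the member values was not tested.

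With nanog guides against Cas13d mRNA, where 2.12% of all genes fell and 1.95% rose, 21 of 75 early zygotic patterning genes fell and 3 rose. Of 36 oocyte and egg genes 0 fell and 7 rose, including gdf9 (1.53), an oocyte growth factor. With rfp guides against the same controls 8 of these 36 rose, and between nanog and rfp guides 0 were called in either direction. Of 12 yolk syncytial layer markers, 5 fell and 0 rose. Of 21 p53 response genes, 8 rose and 0 fell, among them cdkn1a (1.74), a cell cycle inhibitor. With rfp guides 4 of the 21 rose, and 2 were higher with nanog than with rfp guides. The egg genes among the members, wee2 and lrmp, were not called. Later tissue markers summed to 95.8 to 137 TPM there and to 75.7 to 87.3 TPM with Cas13d mRNA, and their part in the member values was not tested.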

How the data were processed

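The authors deposited 1 table of TPM values for 32520 Ensembl genes and an RFP row in 24 libraries. Per the labels' protocols, poly(A)-enriched stranded libraries were sequenced as single reads of 75 bp. The submitters' processing notes name bcl2fastq 2.18, STAR 2.6.1c, RSEM and danRer11; annotation and filters are not given in the sources used here. All 24 columns were matched by title, with 0 left over. TPM keeps no depth, so no interval or detection floor is given.

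The members and gene lists were chosen with earlier results of these data known. Genes with a mean of at least 1 TPM were fitted as log2(TPM + 1), which understates changes of low genes, with limma 3.58.1 in R 4.3.3 (trended eBayes, two-sided, 1 term per group). The first set used 12 libraries (6 residual degrees of freedom). The second used the 8 libraries outside the rule (4 residual degrees of freedom). P-values rest on a spread between replicates that is pooled over all groups of a fit and adjusted by the trend over genes. The nanog guide replicates differed by a median of 0.50 on the log2 scale over all genes. In the other groups of the first set this was 0.14 to 0.18, so the pooled spread can understate that of the nanog guide group. Overlapping genes are uncertain, as strand use in the counting is not given in the sources used here.

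Named are the 10 members lowest in the rule's contrast, the 3 nearest its threshold on each side, up to 4 rising and 4 falling called members per comparison with at least 5 TPM and no overlap, list members and the 6 most abundant. Further members and list genes were named after their values were seen. The gene name table held 33 of 46 member identifiers, and 22 matched RefSeq (assembly GRCz12tu, used for names). Sequences and coordinates were not used here.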

Additional observations from a re-analysis of the deposited data

How the results depend on the processing

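The 40 members lower with protein and szrd1 guides, the 13 lower with nanog guides, the 12 lower against rfp guides and the 28 lower with protein and the reporter stayed within 1.5 times their count under all alternatives run. None of the called members picked by the naming rule changed direction. Direction was not followed for the other members named in the text. The share of all genes called under each alternative is not given, here or above, so these counts have no background. Counts of members called higher were less stable. With nanog guides, 1 was higher; this became 0 without the intensity trend, with median-of-ratios scaling or with no filter, 3 with quantile normalization, 6 at a mean of 5 TPM and 11 when the compared groups were fitted alone. Against rfp guides, 0 became 1 at a mean of 5 TPM and 4 in the fit of the compared groups. With rfp guides, 5 became 3 with no filter and 11 in that fit, and the 1 lower became 0 with no filter and 2 at 5 TPM. With the reporter, 3 became 1 (median-of-ratios) and 0 (no filter). Cas13d mRNA against uninjected embryos gave 1 higher and 1 lower at 5 TPM. With dnd1 guides, 8 became 0 without trend and 1 with no filter. In the added comparison of protein groups, 2 higher became 0 with all 12 libraries. The cause was not tested.

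Leaving out 1 library at a time, the lone library being assumed to vary like the other groups, gave the ranges below. The share of all genes called in such fits is not given, here or above, so these counts have no background. Members higher ran from 0 to 1 for Cas13d mRNA, 0 to 11 for nanog guides, 0 to 9 for nanog against rfp guides, 0 to 6 for rfp guides, 0 to 1 for the reporter, 0 to 1 for dnd1 guides and 0 to 2 in the added comparison. Members lower ran from 0 to 1 for Cas13d mRNA, 12 to 13 for nanog guides, 12 to 14 for nanog against rfp guides, 0 to 2 for rfp guides, 37 to 42 for protein with szrd1 guides, 23 to 29 for protein with the reporter and 19 to 21 in the added comparison. Pairing by replicate number was not evident: with 2 pairs per comparison, deviations of same-numbered libraries correlated between -0.20 and 0.13. So few pairs cannot exclude it. With the replicate block, 13 members were lower with nanog guides, 40 with protein and szrd1 guides and 7 higher with dnd1 guides, and no count moved by over 1.5 times. A pseudocount of 0.1 in the rule gave 88 members, including all 46. Depth is unknown, so levels near 0 TPM cannot be told from absence.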
